A study of Homo sapiens with 12 samples.

Results

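Edit-3 (K/VP.5/edit-3 in full) is a leukemia cell clone in which the TOP2A gene was edited at 1 splice site, and its RNA was compared here across all genes with that of K/VP.5, the line it was made from. The comparison used 8 of the series' 12 RNA sequencing libraries, 4 labelled edit-3 and 4 labelled K/VP.5 by their source names. The other 4 libraries, from K562, are quoted for orientation only. K562 is an established human line of chronic myeloid leukemia that carries the BCR-ABL fusion and has erythroid and megakaryocytic traits. K/VP.5 is a clonal K562 subline that resists etoposide, a drug that locks topoisomerase II onto cleaved DNA. To make edit-3, Cas9 protein was delivered to K/VP.5 cells along with its guide and a single-stranded repair template that carried the new splice site, and clones were screened by a PCR probe for edited alleles. Edit-3 was derived from K/VP.5 cells, and the growth protocol names 0.5 µM etoposide every other week for all 3 lines. Edit-3 is 1 clone, so an effect of the edit and a difference that this clone already had cannot be told apart, and the labels do not state how many TOP2A alleles were edited. Nor do they say whether the 4 libraries of a line were separate cultures, so p-values measure the spread between libraries, which may be technical.

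The 8 libraries held 27.3 M to 37.1 M reads, of which 95.2% to 96.1% lay in protein-coding genes. Levels are given in CPM, reads of a gene scaled to a common library total, and grow with transcript length, so they are compared between lines and not between genes. Log CPM values correlated at 0.983 to 0.994 among edit-3 libraries, at 0.991 to 0.994 among K/VP.5 libraries and at 0.956 to 0.968 between the lines. Of 16 markers of the K562 lineage fixed in a list, 15 reached a mean of 10 CPM in both lines, and their summed level was 3840 to 5499 CPM in edit-3 against 4036 to 4772 CPM in K/VP.5. The exception was HBE1, the embryonic beta-like globin, at 0.331 CPM in edit-3 against 0.252 CPM in K/VP.5. Of the 16, 0 rose and 3 fell, and 2 rose without edit-3 replicate 2. In these bulk samples fewer cells that express a gene and less RNA per cell cannot be told apart.

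Topoisomerase II passes one DNA duplex through a transient break in another, which frees tangled chromosomes before cell division. TOP2A encodes the alpha isoform, made in dividing cells, and TOP2B the beta isoform, made in dividing and resting cells. When an intron is kept in the mRNA, the reading frame usually meets an early stop, and the protein is cut short. A 5′ splice site is recognised by pairing with U1 small nuclear RNA, and the edit altered the intron side of such a site. On GRCh38, TOP2A (ENSG00000131747) spans 40388516 to 40417950 on the minus strand of chromosome 17 and has 35 exons in the transcript used. Exon 19 is 122 bp long, and intron 19, of 1097 bp, runs from 40403055 to 40404151. The exon ends below are shown because the edited bases lie directly between them. Capitals mark the exon's last 3 bases, which the study's design text prints before the site. Sequences are from the GENCODE 29 transcripts.
End of exon 19 (chr17:40404152-40404181, minus strand): gctgaaatgtcttcttatcatcatggtGAG
Start of exon 20 (chr17:40403025-40403054, minus strand): atgtcactaatgatgaccattatcaatttg
Per the design text, intron 19 begins with GTAAAC in unedited K/VP.5 and with GTAAGT in the edited alleles. Counted from the first base of the intron, the substitutions are A5G and C6T, so 4 of the 6 intron bases of the site were kept.

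TOP2A was slightly higher in edit-3. The 4 edit-3 libraries read 410, 437, 383 and 434 CPM, and the 4 K/VP.5 libraries read 370, 358, 368 and 339 CPM. The ranges do not overlap, but the gap between them, from 370 to 383 CPM, is small. The log2 fold change was 0.21 (SE 0.065, adjusted p = 0.027, edgeR quasi-likelihood test), and the call ended without edit-3 replicate 2 or 4 or any 1 K/VP.5 library (lowest log2 fold change 0.17, highest adjusted p = 0.11). K562 stood at 519 ± 25.8 CPM (SD, n = 4). Gene counts add up all transcripts, so RNA that keeps intron 19 was not separated from RNA that removes it. TOP2B was at 261 ± 17.7 CPM in edit-3 against 255 ± 10.3 CPM in K/VP.5, and its ranges overlap (log2 fold change 0.03, adjusted p = 0.83).

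Across the genome the lines differed widely. Of 18286 genes tested, 4309 (23.6%) passed an adjusted p of 0.05, 2368 (12.9%) higher and 1941 (10.6%) lower in edit-3. At least 2-fold changes were seen in 1522 genes (8.32%), 941 higher (5.15%) and 581 lower (3.18%). The call held in all 8 fits that left out 1 of the 8 libraries for 1563 risers (8.55%) and 1371 fallers (7.5%), called steady below. The 4 edit-3 and 4 K/VP.5 libraries did not overlap for 2507 genes higher in edit-3 (13.7%) and 2239 lower (12.2%). The median log2 fold change of all genes was 0.00. A 4-fold difference was reached by 366 risers and 271 fallers, and a 16-fold difference by 88 and 98.

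The share of genes that passed and the size of their changes are given by level. At low counts only large changes can pass, so the sizes of passing genes are not comparable between levels. Genes with a mean under 1 CPM passed in 15.6% of cases, with a median absolute log2 fold change of 1.68 among those that passed. From 1 to 10 CPM the share was 25.3% and the median 1.01, from 10 to 100 CPM 27% and 0.49, and above 100 CPM 24.1% and 0.40. Of 12911 protein-coding genes, 14.4% rose and 12.7% fell. Long intergenic RNA genes rose more often than they fell, 16% against 7.43% of 956. Antisense genes and pseudogenes passed less often, with 8.09% and 7.06% higher and 4.82% and 5.65% lower. Without a stated strand setting, antisense reads cannot be told apart from those of the overlapping gene.

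**Figure D1:**
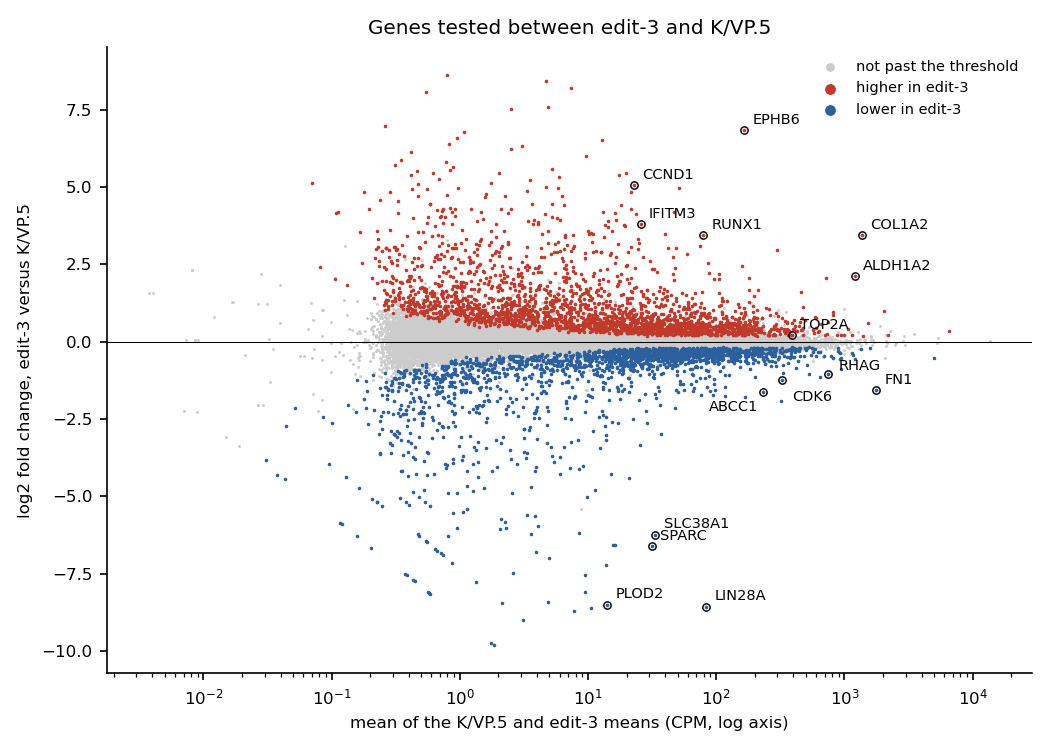
Each point is 1 of the 18286 genes tested, with the mean of the 2 line means in CPM on a log axis across and the log2 fold change of edit-3 versus K/VP.5 upward. Red points are the 2368 genes called higher, blue points the 1941 called lower and grey points the rest, and at low levels only large changes are coloured.

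A few genes were read in one line and all but unread in the other. With at least 1 CPM in every edit-3 library and at most 3 reads over the 4 K/VP.5 libraries, 8 genes qualified, 5 of them protein-coding: PRSS2, ARHGEF5, OR52D1, ARHGEF35 and DOK2. DOK2 encodes an adaptor that dampens tyrosine kinase signals, BCR-ABL among them. In the opposite direction 13 genes qualified, 9 of them protein-coding: KCNQ5, PLS3, PABPC4L, PKNOX2, NBDY, GDF2, PLCB4, MAF and SPATA22. MAF is a transcription factor of lymphoid and lens cells, PLCB4 a phospholipase that signals below G proteins, and GDF2 the secreted factor BMP9. PRSS2 and the ARHGEF5 and ARHGEF35 pair have near-identical copies and can share reads with them. OR52D1 resembles other olfactory receptor genes and may share reads too. This cutoff was chosen after values had been seen and carries no test.

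The 15 largest rises among genes that reached 10 CPM included signalling receptors, cell cycle and cytoskeletal genes. EPHB6 (chromosome 7, 142855061 to 142871094) encodes an Eph receptor that lacks kinase activity. Its edit-3 libraries read 188, 297, 344 and 479 CPM and its K/VP.5 libraries 2.32, 3.01, 2.22 and 3.89 CPM. Every edit-3 library lay far above every K/VP.5 library, although edit-3 itself varied more than 2-fold (log2 fold change 6.83, SE 0.51, adjusted p = 3.2e-06). Its neighbour TRPV6, an epithelial calcium channel, starts at 142871203 and read 7.98, 10.8, 14.6 and 25.6 CPM against 6 reads in all of K/VP.5. The TRPV6 log2 fold change was 8.19, and 9.12 without K/VP.5 replicate 4, the highest of the 4.

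CCND1, the gene of cyclin D1, drives entry into the cell cycle with CDK4 and CDK6. It read 39.5, 33.5, 48.6 and 56 CPM in edit-3 against 1.28, 1.24, 1.02 and 1.76 CPM in K/VP.5, and K562 stood at 7.98 ± 4.61 CPM. No edit-3 library came near the K/VP.5 range (log2 fold change 5.05, SE 0.41, adjusted p = 3.3e-06). ARHGAP6, a GTPase-activating protein, read 82.4, 118, 92.8 and 105 CPM in edit-3 against 3.12 to 3.33 CPM in K/VP.5 (log2 fold change 4.96, adjusted p = 3.5e-11), with K562 at 93.2 ± 18.8 CPM. UTRN, the dystrophin relative utrophin, was at 41.6 ± 9.16 against 1.46 ± 0.319 CPM, and K562 at 23.4 ± 1.75 CPM. CNKSR3, a scaffold of kinase signalling, was at 41.2 ± 4.88 against 2.13 ± 0.0963 CPM, with K562 at 39 ± 9.43 CPM. Both genes lie on the long arm of chromosome 6, and both were high in every edit-3 library.

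A pair of olfactory receptor genes beside the beta-globin genes on chromosome 11 rose together. OR51B4 (5301014 to 5301946) read 12.1, 11.5, 10.7 and 12 CPM in edit-3 against 0.227 to 0.32 CPM in K/VP.5. OR51B5 (5303444 to 5505652) read 33.3, 38.9, 30.4 and 34.3 CPM in edit-3 against 0.539 to 0.956 CPM in K/VP.5. The ranges lie far apart for both, with log2 fold changes of 5.31 and 5.38 and adjusted p = 4.0e-11 and 5.8e-12. K562 stood at 23 ± 4.4 CPM for OR51B4 and 94 ± 2.74 CPM for OR51B5. Olfactory receptor genes are much alike, so these reads can be shared with copies. Of the globin genes nearby, HBD, the delta globin at 5232678 to 5243657, fell from 1.67 ± 0.386 to 0.533 ± 0.11 CPM (log2 fold change -1.64, adjusted p = 0.00026).

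The remaining large rises spanned several cell programmes. MS4A3, a membrane protein of myeloid progenitors, read 31.4, 63.5, 24.3 and 36.4 CPM in edit-3 against 0.595 to 1.2 CPM in K/VP.5. MLC1, an astrocyte membrane protein, was at 25.5 ± 12.8 against 0.271 ± 0.0918 CPM, and SH3BP4, which acts in receptor endocytosis, at 19.1 ± 1.12 against 0.293 ± 0.148 CPM. SPATS2L, an RNA-binding protein of stress granules, was at 34.7 ± 5.4 against 1.61 ± 0.241 CPM, and K562 at 18.9 ± 6.83 CPM. GMFG, which takes apart branched actin in blood cells, was at 12.1 ± 3.02 against 0.441 ± 0.311 CPM, and K562 at 7.76 ± 5.6 CPM. MACC1, an activator of the MET receptor gene, was at 11.2 ± 3.77 against 0.352 ± 0.188 CPM, and CDH18, a cadherin, at 10.2 ± 1.59 against 0.204 ± 0.0542 CPM. K562 stood at 19.2 ± 2.78 and 22.1 ± 1.78 CPM for these 2 genes. Across these 7 genes the log2 fold change ran from 4.41 for SPATS2L to 6.50 for MLC1, and the largest adjusted p was 0.00012, for GMFG.

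**Figure D2:**
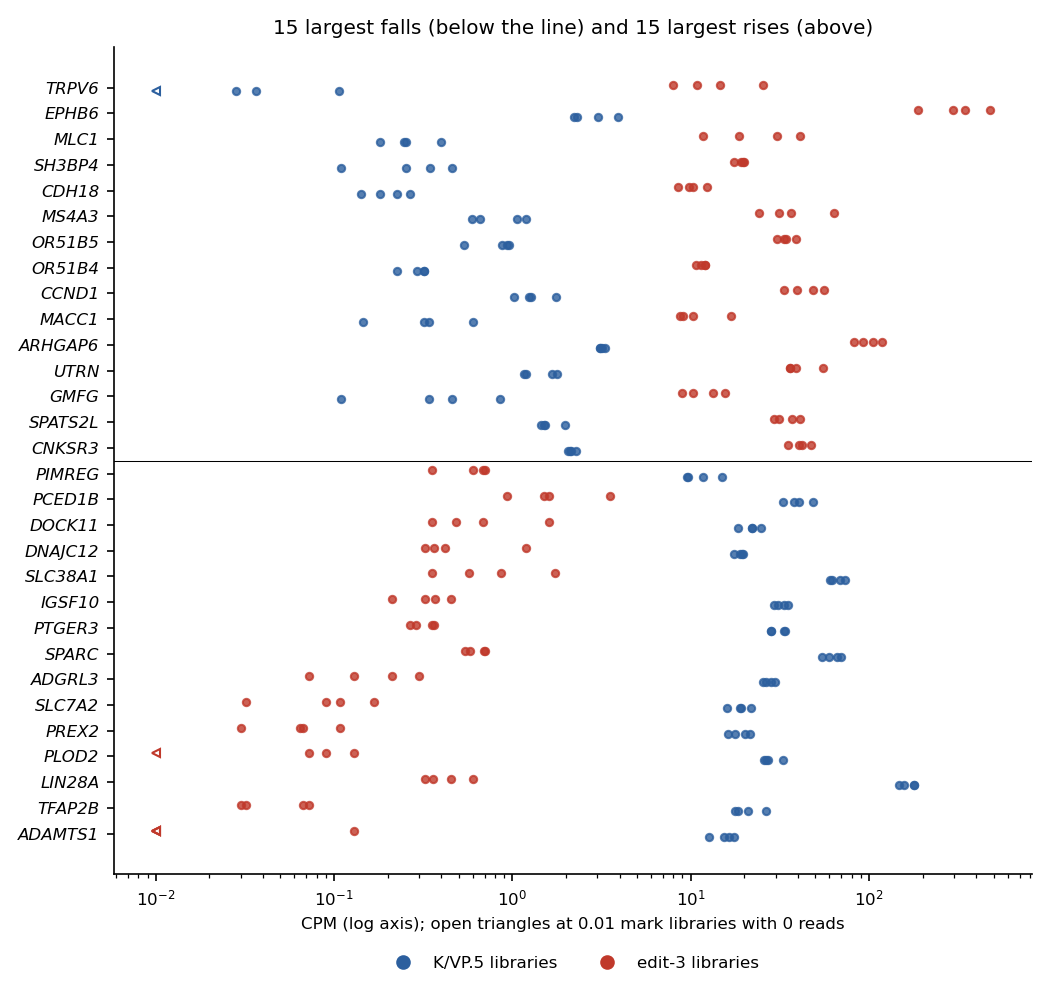
Levels of the 15 genes with the largest rises (above the line) and the 15 with the largest falls (below it), in CPM on a log axis, with 1 point per library in red for edit-3 and blue for K/VP.5. The red and blue points do not overlap for any of the 30 genes, which the selection rule required, and open triangles mark libraries with 0 reads.

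The 15 largest falls were led by genes near 0 in edit-3. LIN28A, which blocks the maturation of let-7 microRNAs, is normally silent outside embryonic and germ cells. It read 178, 180, 157 and 147 CPM in K/VP.5, but 0.323, 0.601, 0.36 and 0.452 CPM in edit-3, and K562 stood at 0.385 ± 0.176 CPM. The drop was near-complete in each edit-3 library (log2 fold change -8.56, SE 0.19, adjusted p = 1.9e-12). Of 21 genes of the LIN28 and let-7 axis tested, 3 rose (14.3%) and 2 fell (9.52%), near the 12.9% and 10.6% of all genes. Of these 2 and 2 were steady, with CCND1 and DICER1 the steady risers, and the list's median was -0.04. HMGA1, a chromatin protein and let-7 target, was at 2100 ± 160 against 2182 ± 66.6 CPM. DICER1, the enzyme that cuts microRNA precursors, rose from 90.3 ± 5.56 to 131 ± 7.81 CPM (log2 fold change 0.54, adjusted p = 0.00016). It lies at 90 to 100 Mb of chromosome 14, where 31 of 61 genes rose and 0 fell (median 0.41).

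Several of the genes that fell were also lower in K562 than in K/VP.5. TFAP2B, an AP-2 transcription factor of the neural crest, fell from 20.9 ± 3.95 CPM to 6 reads over the 4 edit-3 libraries. ADAMTS1, a secreted metalloprotease, fell from 15.5 ± 2.1 CPM to 4 reads, all in edit-3 replicate 1, and its log2 fold change of -8.72 became -11.88 without that library. SPARC, a matrix protein also stored in platelets, read 54.5, 65.9, 59.6 and 69.9 CPM in K/VP.5, but 0.541 to 0.701 CPM in edit-3. PLOD2, which hydroxylates collagen lysines, fell from 28.1 ± 3.24 to 0.073 ± 0.0542 CPM and IGSF10 from 32.2 ± 2.59 to 0.339 ± 0.1 CPM. PREX2, a Rac activator, had a log2 fold change of -8.08, SLC7A2, a cationic amino acid transporter, of -7.53, and ADGRL3, an adhesion receptor of neurons, of -7.22. In each of these genes all 4 edit-3 libraries were under 1 CPM.

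Other large falls concerned genes that K562 expressed at a similar or higher level. SLC38A1, a glutamine transporter, read 68.5, 62.4, 73.7 and 60.4 CPM in K/VP.5, but 0.356, 1.74, 0.865 and 0.573 CPM in edit-3, with K562 at 122 ± 3.04 CPM. PTGER3, a prostaglandin E2 receptor, fell from 30.8 ± 3.19 to 0.318 ± 0.0476 CPM, and K562 stood at 77.4 ± 12.4 CPM. DOCK11, an activator of CDC42 in blood cells, fell from 21.9 ± 2.6 to 0.781 ± 0.564 CPM, and K562 stood at 112 ± 8.23 CPM. These 3 genes were low in every edit-3 library, with log2 fold changes of -6.24, -6.57 and -4.81 and adjusted p = 4.0e-09, 5.8e-12 and 5.9e-08. PIMREG, a mitotic regulator, fell from 11.5 ± 2.49 to 0.586 ± 0.16 CPM against 11 ± 4.25 CPM in K562. PCED1B fell from 40.1 ± 6.48 to 1.9 ± 1.13 CPM and DNAJC12, a co-chaperone, from 18.9 ± 0.969 to 0.577 ± 0.418 CPM, and K562 stood below K/VP.5 for both, at 13.8 ± 4.51 and 2.08 ± 0.177 CPM. Edit-3 replicate 2 was the highest edit-3 library for SLC38A1, DOCK11, DNAJC12 and PCED1B, and without it the changes of DOCK11 and DNAJC12 grew to -5.44 and -5.66.

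Counted in reads rather than in folds, the change was carried by other genes. The 12 protein-coding genes or intergenic RNAs with the largest rise and the 12 with the largest fall in CPM were picked after values had been seen. COL1A2, a chain of type I collagen (chromosome 7, 94394561 to 94431232), had the largest rise in CPM. Edit-3 read 1681, 2709, 2624 and 2951 CPM and K/VP.5 194, 267, 217 and 241 CPM, while K562 stood at 6.82 ± 1.66 CPM. Edit-3 replicate 1 was the lowest of the 4 yet far above K/VP.5 (log2 fold change 3.44, SE 0.20, adjusted p = 8.6e-08). ALDH1A2, which makes retinoic acid, read 1638, 2106, 1903 and 2165 CPM against 427 to 477 CPM (log2 fold change 2.11, adjusted p = 2.1e-10), with K562 at 510 ± 24.5 CPM. GLUL, glutamine synthetase, rose from 1368 ± 128 to 2721 ± 745 CPM (log2 fold change 0.99, adjusted p = 0.0038), and its edit-3 libraries varied between 1969 and 3749 CPM. KIF1A, a neuronal transport motor, rose from 67.3 ± 3.4 to 523 ± 77.3 CPM, and SPN, the leukocyte surface protein CD43, from 227 ± 10.7 to 685 ± 28.4 CPM. FLNA and TLN1, which tie actin to integrins, rose to 1084 ± 147 CPM from 556 ± 80.3 CPM and to 1051 ± 225 CPM from 576 ± 37.1 CPM.

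The largest falls in reads began with FN1, the matrix protein fibronectin. K/VP.5 read 2298, 2475, 2716 and 3099 CPM and edit-3 438, 1406, 853 and 886 CPM. Edit-3 was lower in all 4 libraries, but replicate 2 lay well above the rest (log2 fold change -1.56, SE 0.27, adjusted p = 0.0016). MSN, the membrane linker moesin, fell from 1217 ± 62.3 to 666 ± 51.7 CPM. RHAG, the Rh-associated ammonium channel of red cells, read 1052, 1072, 1017 and 898 CPM in K/VP.5, but 553, 500, 459 and 451 CPM in edit-3 (log2 fold change -1.04, adjusted p = 3.9e-07). The ranges of RHAG lie apart, and K562 stood between them at 701 ± 53.3 CPM. ATP5F1B, a subunit of ATP synthase, fell by 0.56 on the log2 scale.

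**Figure D3:**
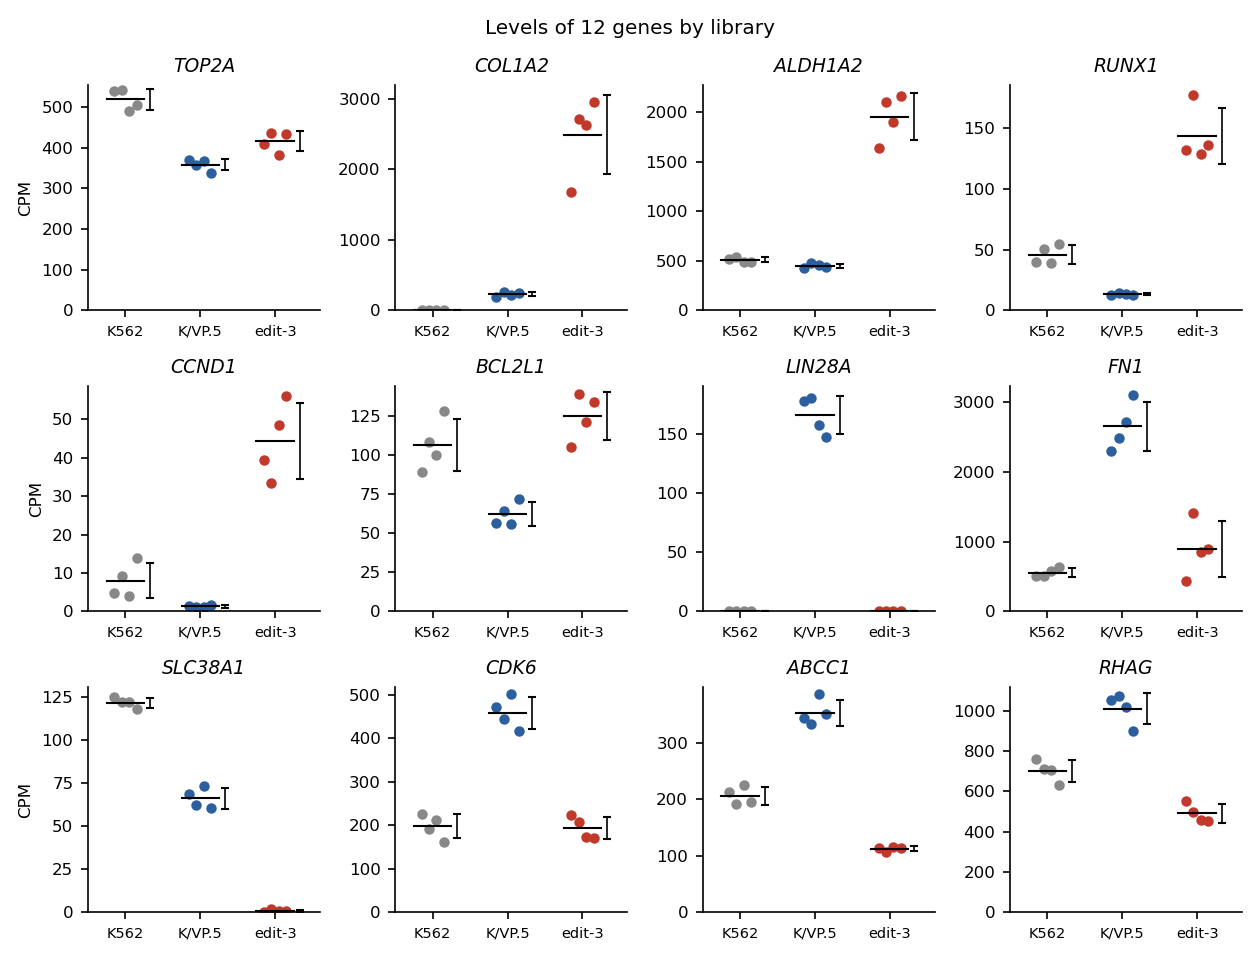
Levels of 12 genes in CPM on linear axes from 0, with 1 point per library, a bar at the mean and an error bar of 1 SD (n = 4) for K562 (grey), K/VP.5 (blue) and edit-3 (red). TOP2A shows a narrow gap between edit-3 and K/VP.5, while COL1A2 reaches 2951 CPM in edit-3 and LIN28A is high in K/VP.5 alone.

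Genes of class I antigen presentation and of the interferon response rose more often than they fell. Class I molecules show peptides on the cell surface, after the immunoproteasome has cut them and the TAP transporter has moved them into the endoplasmic reticulum. Interferon-stimulated genes encode sensors and blockers of viral RNA and share a DNA element bound by STAT and IRF factors. Of 17 class I presentation genes tested, 11 rose and 2 fell, against 12.9% and 10.6% of all genes, and 9 and 2 of these were steady. The list's median log2 fold change was 0.70. PSMB9, an immunoproteasome subunit, rose from 0.343 ± 0.0922 to 3.06 ± 1.18 CPM. TAP1 read 18.8, 21.6, 20 and 16.2 CPM in edit-3 against 2.24, 2.62, 2.8 and 2.56 CPM in K/VP.5, and the ranges are far apart (log2 fold change 2.91, adjusted p = 1.8e-08). The heavy chain genes HLA-C, HLA-E and HLA-B, which resemble each other and other HLA genes, rose by 1.24, 1.19 and 0.98. The peptide trimmer ERAP1 and the proteasome activator PSME1 each rose by 0.70. The 2 that fell, CALR and PDIA3 (by 0.54 and 0.46), are general chaperones of the endoplasmic reticulum as well, and CANX, another one, was at 1567 ± 132 against 1684 ± 87.1 CPM (adjusted p = 0.36). Of class II presentation genes only 7 of 15 had enough reads, and CIITA, their master regulator, fell from 3.7 ± 0.771 to 2.07 ± 0.393 CPM. CTSS, a cathepsin, was the 1 class II gene that rose, and its call ended without K/VP.5 replicate 1, 2 or 3 or edit-3 replicate 2, 3 or 4.

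Of 28 interferon-stimulated genes tested, 14 rose and 2 fell (11 and 2 steady), with a median of 0.53. The risers included sensors, effectors and modifiers. OAS3, which answers double-stranded RNA, read 10.8, 12.7, 10.3 and 11.9 CPM in edit-3 against 0.533 to 0.85 CPM in K/VP.5. DHX58 and DDX58, a pair of RNA sensors, rose by 1.34 and 0.55. ISG15, a ubiquitin-like modifier, rose from 8.81 ± 0.311 to 19.0 ± 1.59 CPM, and UBE2L6, the enzyme that attaches it, from 2.78 ± 0.408 to 12.9 ± 3.62 CPM. PARP9 and DTX3L, which work as a complex, rose by 0.97 and 0.89. Calls were not uniform, however. IFITM1 and BST2, blockers of viral entry and release, fell by 0.69 and 0.51, while IFITM3 read 43.7 to 51.3 CPM against 2.76 to 3.89 CPM. IFITM3 shares sequence with IFITM2, which can blur its count. Another 16 list members, MX1, IFIT1 and OAS2 among them, had too few reads to test.

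The promoters of these genes were searched for an interferon-response element, written as GAAA, any 2 bases and GAAA again, or TTTC, any 2 bases and TTTC for the other strand, with overlapping matches allowed. Promoters were RefSeq's 250 bases before to 50 bases after a gene's start on GRCh38.p14, found for 33 of the 44 members. Among the genes tested, 9 of 13 risers (69.2%), both fallers (100%) and 3 of 7 that did not pass (42.9%) held a match. Members with too few reads to test held one in 7 of 11 cases (63.6%). Of all 34961 promoters, 1250 (3.58%) did. A match is a description of letters and not a bound site. The windows below are shown for 3 risers and 1 faller so that their elements can be compared, and capitals mark 1 match in each.
IFITM3 (chr11:320873-320942, minus strand): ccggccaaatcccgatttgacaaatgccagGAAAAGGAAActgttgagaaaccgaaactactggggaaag
OAS3 (chr12:112938301-112938370, plus strand): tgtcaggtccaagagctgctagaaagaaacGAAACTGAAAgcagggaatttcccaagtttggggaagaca
ISG15 (chr1:1013354-1013423, plus strand): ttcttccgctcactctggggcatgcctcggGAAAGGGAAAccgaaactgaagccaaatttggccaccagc
BST2 (chr19:17405721-17405790, minus strand): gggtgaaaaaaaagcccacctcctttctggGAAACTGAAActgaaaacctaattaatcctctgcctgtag

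Blood lineage genes moved in several directions at once. RUNX1, a transcription factor of blood stem cells and megakaryocytes (chromosome 21), read 132, 178, 129 and 136 CPM in edit-3 against 12.8, 14.4, 13.7 and 12.4 CPM in K/VP.5, and K562 stood at 46.1 ± 7.69 CPM. The edit-3 range lay far above (log2 fold change 3.43, SE 0.14, adjusted p = 2.0e-10). ETV6, another early blood factor, rose from 15 ± 1.14 to 35.8 ± 2.39 CPM. SOX6, which silences fetal globin with BCL11A, fell from 6.05 ± 1.1 to 0.846 ± 0.288 CPM, and LMO2, a bridging factor of the erythroid complex, from 161 ± 11.7 to 105 ± 6.98 CPM. GATA1, the central erythroid factor, overlapped between lines at 199 ± 11 and 196 ± 13.1 CPM. In all, 5 of 20 erythroid and megakaryocytic factors rose and 3 fell (3 and 2 steady), with a median of 0.03. The count of risers was 3 without K/VP.5 replicate 1, 3 or 4.

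Red cell genes split evenly. Of 22 membrane genes 6 rose and 6 fell (5 and 5 steady), with a median of -0.06. CD47, which guards red cells from macrophages, read 81.1, 80.9, 66.3 and 69.8 CPM in edit-3 against 16.4 to 21 CPM in K/VP.5, so the ranges lie apart (log2 fold change 1.99, adjusted p = 6.8e-09). SLC4A1, the band 3 anion exchanger, rose from 2.78 ± 0.879 to 10.6 ± 1.95 CPM, and CD44, a hyaluronan receptor, from 0.0949 ± 0.0316 to 3.38 ± 1.54 CPM. GYPB and GYPE, glycophorin genes and near-copies of each other, fell by 0.95 and 1.27. Of 24 heme and iron genes 6 rose and 4 fell. ABCB10, a mitochondrial transporter needed for heme synthesis, rose from 113 ± 7.45 to 220 ± 14.5 CPM. ALAS2, the first enzyme of the pathway in red cells, fell by 0.73 and STEAP3, an iron reductase, from 58.8 ± 4.27 to 32.3 ± 5.96 CPM. TFRC, the transferrin receptor, lies in a region of chromosome 3 described below and overlapped between lines (log2 fold change 0.52, adjusted p = 0.14). Of 11 globins 2 rose, HBA2 and HBQ1, and HBD fell. The count of risers was 5 without edit-3 replicate 2 and 1 without any of the other 7 libraries.

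Platelet, myeloid and lymphoid genes rose more often than they fell, and several of the risers started from low levels. Of 11 megakaryocyte and platelet genes tested 4 rose (36.4%) and 2 fell (18.2%), all steady, against 12.9% and 10.6% of all genes. ITGA2B and ITGB3, the chains of the fibrinogen receptor, rose to 13.8 ± 4.81 CPM from 1.6 ± 0.623 CPM and to 3.84 ± 1.81 CPM from 0.446 ± 0.113 CPM. CD36, the thrombospondin receptor, fell from 11.9 ± 1.52 to 1.11 ± 0.358 CPM. SPARC, also on this list, fell further, from 62.5 ± 6.77 to 0.629 ± 0.0803 CPM (log2 fold change -6.62). Of 17 genes of T and B cell signalling 7 rose and 2 fell, all steady, with a median of 0.60. FYN, a SRC family kinase, read 22.3, 37, 23.6 and 23.8 CPM in edit-3 against 1.47 to 2.51 CPM in K/VP.5. LCP2 and GRAP2, adaptors that bind each other below the T cell receptor, rose by 6.33 and 2.35. TRBC1, a T cell receptor segment with a near-identical copy, had 3 reads in K/VP.5 and 5 ± 2.82 CPM in edit-3, a ratio of 216 (95% interval 73.7 to 1052, counting error only). Its log2 fold change of 7.51 was 8.46 without K/VP.5 replicate 2. TRBC1 lies at 142791694 to 142793368 on chromosome 7, near EPHB6 and TRPV6, which rose as described above. EBF1, a B cell factor, fell by 2.23, and the 15 members not tested included CD3E, LCK and CD79A.

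Of 15 granulocyte and monocyte genes 6 rose and 2 fell, of which 3 and 1 were steady. FCGR2A, an antibody receptor, rose from 14.7 ± 6.42 to 104 ± 40.8 CPM and AZU1, a granule protein, from 0.6 ± 0.075 to 1.97 ± 0.593 CPM. The count of risers was 3 without K/VP.5 replicate 3 or edit-3 replicate 2, 3 or 4, and the count of fallers was 1 without K/VP.5 replicate 1, 2 or 3 or edit-3 replicate 3 or 4. SPI1 and LYZ were among the calls not held, and LYZ lies in a chromosome 12 region described below. Of the 14 mast cell and basophil genes only 3 were tested, and KIT, the stem cell factor receptor, read 6.85, 11.9, 7.35 and 9.22 CPM in edit-3 against 0.691 to 1.22 CPM (adjusted p = 2.5e-07). Among 22 cytokine receptors 4 rose and 2 fell, all steady. IL18R1 rose from 0.083 ± 0.0552 to 1.74 ± 0.572 CPM, and LIFR, the leukemia inhibitory factor receptor, fell from 15.7 ± 1.25 to 3.28 ± 0.976 CPM.

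Below the receptors, kinase pathway genes changed in part. Of 35 JAK-STAT and BCR-ABL pathway genes 7 rose and 5 fell (6 and 4 steady), with a median of 0.00. PIM2, a survival kinase and STAT5 target, read 318, 215, 282 and 256 CPM in edit-3 against 113 to 125 CPM in K/VP.5, and no library overlapped (log2 fold change 1.16, adjusted p = 1.3e-06). ID1, an inhibitor of differentiation factors, rose from 64.6 ± 7.35 to 144 ± 19.2 CPM. SOCS6 and SOCS1, which restrain cytokine signals, fell by 1.07 and 0.61, and SOCS1 lies in the chromosome 16 region described below. CRKL, an adaptor bound by BCR-ABL, was at 1043 ± 135 against 1041 ± 25.1 CPM. Of 27 immediate early and ERK feedback genes 6 rose and 2 fell (5 and 2 steady), with a median of 0.37. FOSL1 and FOSL2, AP-1 subunits, rose by 1.12 and 1.33, IER3 by 1.38, and DUSP4, a phosphatase of ERK, fell by 1.10. Of 26 NF-kB genes 7 rose and 3 fell (2 and 2 steady), and the risers numbered 4 without K/VP.5 replicate 1 or edit-3 replicate 4. TNFAIP3, which shuts NF-kB off, read 28.9, 76.2, 34.6 and 35.5 CPM against 10.3, 11.3, 21.4 and 11.7 CPM.

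Cell cycle entry genes changed while the division machinery did not move as a group. Of 13 CDK inhibitors and D cyclins 5 rose and 2 fell (4 and 2 steady), with a median of 0.32. CDK6, a cyclin D partner, read 471, 445, 502 and 416 CPM in K/VP.5, but 224, 207, 173 and 171 CPM in edit-3, with K562 at 198 ± 27.7 CPM. The highest edit-3 library was far under the lowest of K/VP.5 (log2 fold change -1.24, SE 0.11, adjusted p = 1.2e-06). CDK4, the related kinase, fell by 0.44. CCND3 rose from 267 ± 10.9 to 421 ± 74.8 CPM, whereas CCND2 was at 443 ± 45.6 against 425 ± 19.8 CPM (adjusted p = 0.68). CDKN1A, the p21 inhibitor, had a log2 fold change of 2.90, but its call did not hold in every fit without 1 library. Of 38 mitotic genes 3 rose and 2 fell, shares under the background of 12.9% and 10.6%. The mitotic risers numbered 0 without any 1 K/VP.5 library or without edit-3 replicate 2 or 4, and 1 without edit-3 replicate 1, and TOP2A was among them. The fallers numbered 1 without K/VP.5 replicate 1, 2 or 3 or edit-3 replicate 4, and CENPE, a kinetochore motor, was the steady one (107 ± 5.92 to 89.7 ± 4.77 CPM). MKI67, a marker of cycling cells, was at 403 ± 46.4 against 378 ± 23.7 CPM (adjusted p = 0.43).

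Replication genes passed in shares under those of all genes, 12.9% higher and 10.6% lower. Of 41 replication genes 2 rose (4.88%) and 4 fell (9.76%). RFC4, a clamp loader subunit, rose from 43.2 ± 2.44 to 71.9 ± 5.33 CPM, and PRIM1, a primase subunit, fell from 42.2 ± 2.81 to 30.6 ± 4.05 CPM. RFC4 lies at 180 to 190 Mb of chromosome 3, where 34 of 65 genes rose and 0 fell (median 0.45). PRIM1 lies at 50 to 60 Mb of chromosome 12, where 65 of 186 genes fell and 7 rose (median -0.26). TYMS was the second riser and its call ended without any 1 of the libraries except edit-3 replicate 2. Replication-dependent histones, made in S phase, fell in 21 of 39 cases (53.8%) and rose in 1 (2.56%). Of these 15 and 1 were steady, and the median was -0.29. HIST1H3J fell from 104 ± 15.2 to 45.9 ± 20.7 CPM and HIST1H2AI from 237 ± 12.6 to 129 ± 21.6 CPM, while HIST3H2A rose by 0.42. HIST1H1C, a linker histone, was at 1220 ± 26.6 against 1255 ± 46.6 CPM. Histone genes are near-copies and their RNAs lack poly(A) tails, so their counts depend on mapping and RNA selection, neither of which the labels describe.

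Etoposide leaves breaks that carry topoisomerase, which end-processing and end-joining enzymes repair. Of 12 topoisomerases and end-processing enzymes TDP1, a tyrosyl-DNA phosphodiesterase whose part in the repair of etoposide breaks was not tested, was the steady riser. It read 45.9, 46.3, 47.3 and 51.3 CPM in edit-3 against 36.8, 36.1, 37 and 35.2 CPM in K/VP.5, ranges that lie apart (log2 fold change 0.40, adjusted p = 0.00072), and it lies in a chromosome 14 region described below. The other riser was TOP2A. TOP1MT, the mitochondrial enzyme, fell by 0.29, a call that ended without K/VP.5 replicate 1, 2 or 3 or edit-3 replicate 2 or 4, and 2 members fell without edit-3 replicate 3. Of 24 end-joining and damage genes 4 rose and 3 fell (3 and 2 steady). Those shares were 16.7% and 12.5%, against 12.9% and 10.6% of all genes. LIG4, the ligase of end joining, rose from 14.9 ± 0.824 to 20.9 ± 1.38 CPM and RNF168, a chromatin ubiquitin ligase at breaks, from 68.9 ± 3.76 to 98 ± 6.08 CPM. CHEK2, a checkpoint kinase, fell from 23 ± 1.38 to 16.5 ± 1.67 CPM. PRKDC, the DNA-dependent kinase, was at 1681 ± 120 against 1518 ± 66.2 CPM (adjusted p = 0.15). Of 28 homologous recombination and Fanconi genes 1 rose (3.57%), FANCI by 0.28, and 2 fell (7.14%). The risers numbered 4, 2 and 3 without edit-3 replicate 1, K/VP.5 replicate 3 and edit-3 replicate 3, and the fallers 1 without K/VP.5 replicate 1, 3 or 4 or edit-3 replicate 3 or 4.

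Of 7 efflux transporters tested 4 fell and 1 rose (3 and 0 steady). ABCC1, the pump MRP1, read 343, 332, 385 and 351 CPM in K/VP.5, but 114, 107, 116 and 114 CPM in edit-3, and K562 stood between at 206 ± 15.9 CPM. Both ABCC1 and its neighbour ABCC6, which has pseudogene copies, lie in the chromosome 16 region described below, where most genes fell. ABCG2, the pump BCRP on chromosome 4, lies outside it and read 4.17, 4.14, 4.26 and 2.69 CPM in K/VP.5, but 0.392 to 0.97 CPM in edit-3. ABCC4 did not pass, at 128 ± 6.16 against 136 ± 5.03 CPM (adjusted p = 0.30). ABCC3 rose from 1.39 to 6.72 CPM, a call that ended without K/VP.5 replicate 1, 2 or 3. Among 32 apoptosis regulators 9 rose and 2 fell (6 and 1 steady), with a median of 0.17. BCL2L1, the survival protein BCL-XL, read 105, 139, 121 and 134 CPM in edit-3 against 56.7, 63.8, 55.7 and 72 CPM in K/VP.5, ranges that do not meet (log2 fold change 1.01, adjusted p = 2.6e-05). CFLAR, an inhibitor of caspase 8, rose from 75 ± 18.3 to 147 ± 27.7 CPM, and BIRC3, an apoptosis inhibitor, by 3.03. CASP10 fell by 0.90, and the fallers numbered 1 without K/VP.5 replicate 3 or edit-3 replicate 4.

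Adhesion and cytoskeletal genes held many large changes. Of 43 regulators of the actin cytoskeleton 13 rose and 7 fell, 13 and 6 of them steady, with a median of 0.26. Beside ARHGAP6 and GMFG, PREX1 rose by 1.90, TPM4, a tropomyosin, by 1.32, CNN2, a calponin, by 1.03 and RAC2, the Rac of blood cells, by 0.94. PLS3, a plastin, had 3 reads in edit-3 against 5.16 ± 0.164 CPM (ratio 209, 71.3 to 1017), and its log2 fold change of -7.49 was -8.43 without edit-3 replicate 2. LCP1, its blood cell relative, fell by 3.04. ACTB, beta-actin, was at 3094 ± 111 against 2730 ± 121 CPM (adjusted p = 0.065). Of 17 integrin genes 6 rose and 4 fell (3 and 2 steady), and the risers numbered 3 without K/VP.5 replicate 1. ITGB5, a vitronectin receptor chain, rose from 4.84 ± 0.849 to 36.4 ± 9.8 CPM, with K562 at 28 ± 16.7 CPM. Of 25 cadherin and junction genes 7 rose and 7 fell (5 and 4 steady), and the fallers numbered 4 without K/VP.5 replicate 3 or edit-3 replicate 1. GJA1, connexin 43, fell from 7.06 ± 0.321 to 0.0922 ± 0.0632 CPM, and CDH1, E-cadherin, from 2.45 ± 0.946 to 0.216 ± 0.2 CPM, a log2 fold change of -3.50 that became -4.31 without edit-3 replicate 2.

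Guidance and matrix genes changed in both directions too. Of 32 Eph, ephrin and axon guidance genes 7 rose and 7 fell, 6 and 6 of them steady. PLXNA2, a semaphorin receptor, rose from 0.0659 ± 0.0804 to 4.94 ± 0.962 CPM, a log2 fold change of 6.21 that was 7.20 without K/VP.5 replicate 3, and UNC5B, a netrin receptor, rose by 3.48. SLIT2 and its receptor ROBO1 fell by 4.18 and 3.89. Of 21 collagens and modifying enzymes 4 rose and 5 fell, all steady, with a median of -0.16. COL1A2 rose while COL1A1, which encodes the other chain of type I collagen, fell from 18.8 to 7.55 CPM. COL4A2 rose from 1.31 ± 0.155 to 6.79 ± 0.395 CPM. Of 20 markers of fibroblasts, epithelium and endothelium 9 were tested, 3 rose and 2 fell. Their summed level was 3254 to 5545 CPM in edit-3 against 1272 to 1923 CPM in K/VP.5, or 340 to 381 and 168 to 189 CPM without COL1A2, KRT8, KRT18 and KRT19. LUM, KRT5, KRT14 and KDR had 0 reads in edit-3, and PDGFRA, KRT5, KRT7, KRT14 and CDH5 had 0 reads in K/VP.5. PECAM1, also made by platelets and leukocytes, rose from 1.56 ± 0.232 to 18.3 ± 3.82 CPM, with K562 at 32.6 ± 8.48 CPM. The part of these markers in the matrix results was not tested.

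Developmental regulators were among the genes that changed. Of 45 WNT, NOTCH, BMP and TGF-beta genes 12 rose and 7 fell (7 and 3 steady), and the fallers numbered 11 without edit-3 replicate 2 and 4 without K/VP.5 replicate 3. NOTCH2 read 41.9, 52.3, 44.1 and 50.3 CPM in edit-3 against 6.6, 7.23, 7.09 and 7.06 CPM in K/VP.5, and each edit-3 library was far above (log2 fold change 2.75, adjusted p = 1.4e-10). BMP4, a secreted ligand, rose from 0.542 ± 0.138 to 2.56 ± 0.553 CPM, and INHBA, an activin subunit, fell from 1.83 ± 0.342 to 0.0577 ± 0.032 CPM. Of 42 developmental transcription factors 11 rose and 9 fell, 9 and 8 of them steady. TBX2 and FOXC1 rose by 3.04 and 1.66, and HAND2 and TFAP2A fell by 1.11 and 1.52. Among 21 HOX genes 1 rose and 1 fell. HOXC10 fell from 13.3 ± 0.907 to 1.4 ± 0.352 CPM, and the fallers numbered 2 without K/VP.5 replicate 1 or any 1 edit-3 library. HOXB9 was at 238 ± 22.1 against 223 ± 24.7 CPM.

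Of 45 DNA methylation and Polycomb genes 6 rose and 5 fell (5 and 5 steady), with a median of -0.01 and none past 2-fold, shares of 13.3% and 11.1% that lie near the 12.9% and 10.6% of all genes. DNMT3A, a methyltransferase that sets new marks, fell from 128 ± 8.42 to 80.2 ± 8.53 CPM, and PHC2 and PCGF5, Polycomb subunits, rose by 0.66 and 0.63. Of 22 imprinted genes 4 rose and 2 fell, and the fallers numbered 1 without any 1 library except edit-3 replicate 3. PLAGL1, a zinc finger factor, read 40.1, 37.8, 37.5 and 41.2 CPM in edit-3 against 6.56 to 8.55 CPM in K/VP.5, with K562 at 37.8 ± 5.71 CPM. H19 was at 1180 ± 199 against 1396 ± 170 CPM (adjusted p = 0.63). Of 18 cancer-testis antigens 7 fell and 3 rose (6 and 3 steady), with a median of -0.30. MAGEB1 fell from 2.67 ± 0.431 to 0.125 ± 0.037 CPM and MAGEA8 rose from 1.19 ± 0.181 to 4.14 ± 1.09 CPM, both members of a family of close copies.

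Proteostasis genes fell in part. Of 24 chaperones and unfolded protein response genes of the endoplasmic reticulum 9 fell, all steady, and 2 rose, with a median of -0.24. HSP90B1, the chaperone GRP94, read 1115, 1082, 1073 and 1122 CPM in K/VP.5, but 719, 797, 738 and 731 CPM in edit-3, so the ranges are well apart (log2 fold change -0.56, adjusted p = 3.6e-06). MANF, a secreted stress factor, HYOU1, PDIA6 and PDIA4 fell by 0.57, 0.46, 0.37 and 0.28. The risers, SEL1L and DNAJB11, numbered 1 without K/VP.5 replicate 2, 3 or 4 or edit-3 replicate 2 or 3, and SEL1L lies in the chromosome 14 region described below. Of 19 cytosolic heat shock genes 0 rose and 1 fell, CRYAB, from 9.88 ± 1.8 to 4.07 ± 0.261 CPM, with 2 fallers without edit-3 replicate 1. HSP90AB1 was at 5140 ± 539 against 5359 ± 460 CPM (adjusted p = 0.69).

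Metabolic lists held a few large changes. Of 37 glycolysis and hypoxia genes 5 rose and 0 fell, with a median of -0.03. EPAS1, the hypoxia factor HIF-2 alpha, rose from 4.48 ± 1.88 to 44.8 ± 21 CPM and NDRG1, a hypoxia target, from 15.2 ± 6.19 to 80.2 ± 30.2 CPM, both with wide spread in edit-3. The glucose transporter SLC2A1 rose by 0.58, while ENO1, a glycolytic enzyme, was at 2859 ± 324 against 2833 ± 250 CPM. The risers numbered 3 without K/VP.5 replicate 1, 2 or 3 or edit-3 replicate 3 or 4, and 1 gene fell without edit-3 replicate 3. PHGDH, the first enzyme of serine synthesis, read 78.2, 340, 169 and 106 CPM in edit-3 against 32.5 to 51 CPM in K/VP.5 (log2 fold change 2.17, adjusted p = 0.0083), and edit-3 replicate 2 was the highest. Of 29 amino acid response genes 2 rose and 3 fell, with 5 fallers without edit-3 replicate 2 and 1 riser without that library or any 1 K/VP.5 library. Of 25 cholesterol genes 0 rose and 3 fell, among them EBP, a sterol isomerase, by 0.35. Among 26 fatty acid genes 5 rose and 4 fell, ELOVL6, a chain elongase, falling from 172 ± 6.9 to 80.6 ± 12.7 CPM, and the risers numbered 3 without K/VP.5 replicate 1 or 3.

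Oxidant defence, ribosome and splicing genes gave the following counts. Of 32 NRF2 and glutathione genes 7 rose and 8 fell (3 and 5 steady). MGST1, a membrane glutathione transferase, read 9.01, 10.8, 10.1 and 9.78 CPM in K/VP.5 and had 9 reads over the 4 edit-3 libraries (log2 fold change -6.99, adjusted p = 7.9e-11), with K562 at 38.9 ± 2.8 CPM. The risers numbered 4 without K/VP.5 replicate 1, 3 or 4 or edit-3 replicate 3, and the fallers 5 without K/VP.5 replicate 3 or edit-3 replicate 2 or 4. Of 76 ribosomal protein genes 11 rose and 8 fell (3 and 6 steady), with 0 of them changed 2-fold, shares of 14.5% and 10.5% that lie near those of all genes, 12.9% and 10.6%. RPS2 rose from 1211 ± 52.8 to 1848 ± 76.4 CPM, RPL35A from 307 ± 13.9 to 469 ± 14.4 CPM and RPL12 by 0.39. RPS26 fell from 157 ± 17.8 to 108 ± 19 CPM (log2 fold change -0.54) and RPL13 by 0.36. RPS2 and RPL35A lie in windows of chromosomes 16 and 3, described below, where 49% and 69.9% of genes rose. RPS26 lies at 50 to 60 Mb of chromosome 12, where 34.9% fell. The ribosomal risers numbered between 3 and 6 without each library other than edit-3 replicate 2. Of 30 ribosome biogenesis genes and MYC targets 0 rose and 2 fell, and 8 fell without edit-3 replicate 1, but 1 without K/VP.5 replicate 1 or 2 or any other edit-3 library. Of 13 mitochondrially encoded genes 0 passed, although 2 rose without edit-3 replicate 3 and 1 without edit-3 replicate 1. Among 53 genes of splice site recognition 1 rose and 3 fell, shares of 1.89% and 5.66%. SNRNP70, the U1 protein that helps find 5′ splice sites, fell from 329 ± 7.75 to 241 ± 31.1 CPM (log2 fold change -0.45, adjusted p = 0.0013), and RBFOX2, a splicing regulator, by 0.32. MBNL1 was the riser, and the count was 0 without K/VP.5 replicate 2 or 4 and 2 without edit-3 replicate 2.

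Channels and calcium-binding proteins complete the lists. Of 36 potassium, sodium and calcium channel genes 5 rose and 7 fell (5 and 5 steady), with a median of -0.01. KCNQ5, a slow potassium channel, read 11.5, 9.81, 10.5 and 7.36 CPM in K/VP.5 and had 3 reads in edit-3 (ratio 394, 134 to 1913), with K562 at 9.39 ± 2.04 CPM. KCNAB2, a channel subunit, fell from 15.1 ± 1.99 to 4.02 ± 0.466 CPM. Of 18 S100 proteins and annexins 5 rose, all steady, and 1 fell, while the fallers numbered 4 without edit-3 replicate 2 and 2 without K/VP.5 replicate 4. ANXA3 rose from 0.728 ± 0.226 to 8.98 ± 3.17 CPM and S100A16 from 1.28 ± 0.329 to 9.06 ± 3.2 CPM.

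**Figure D4:**
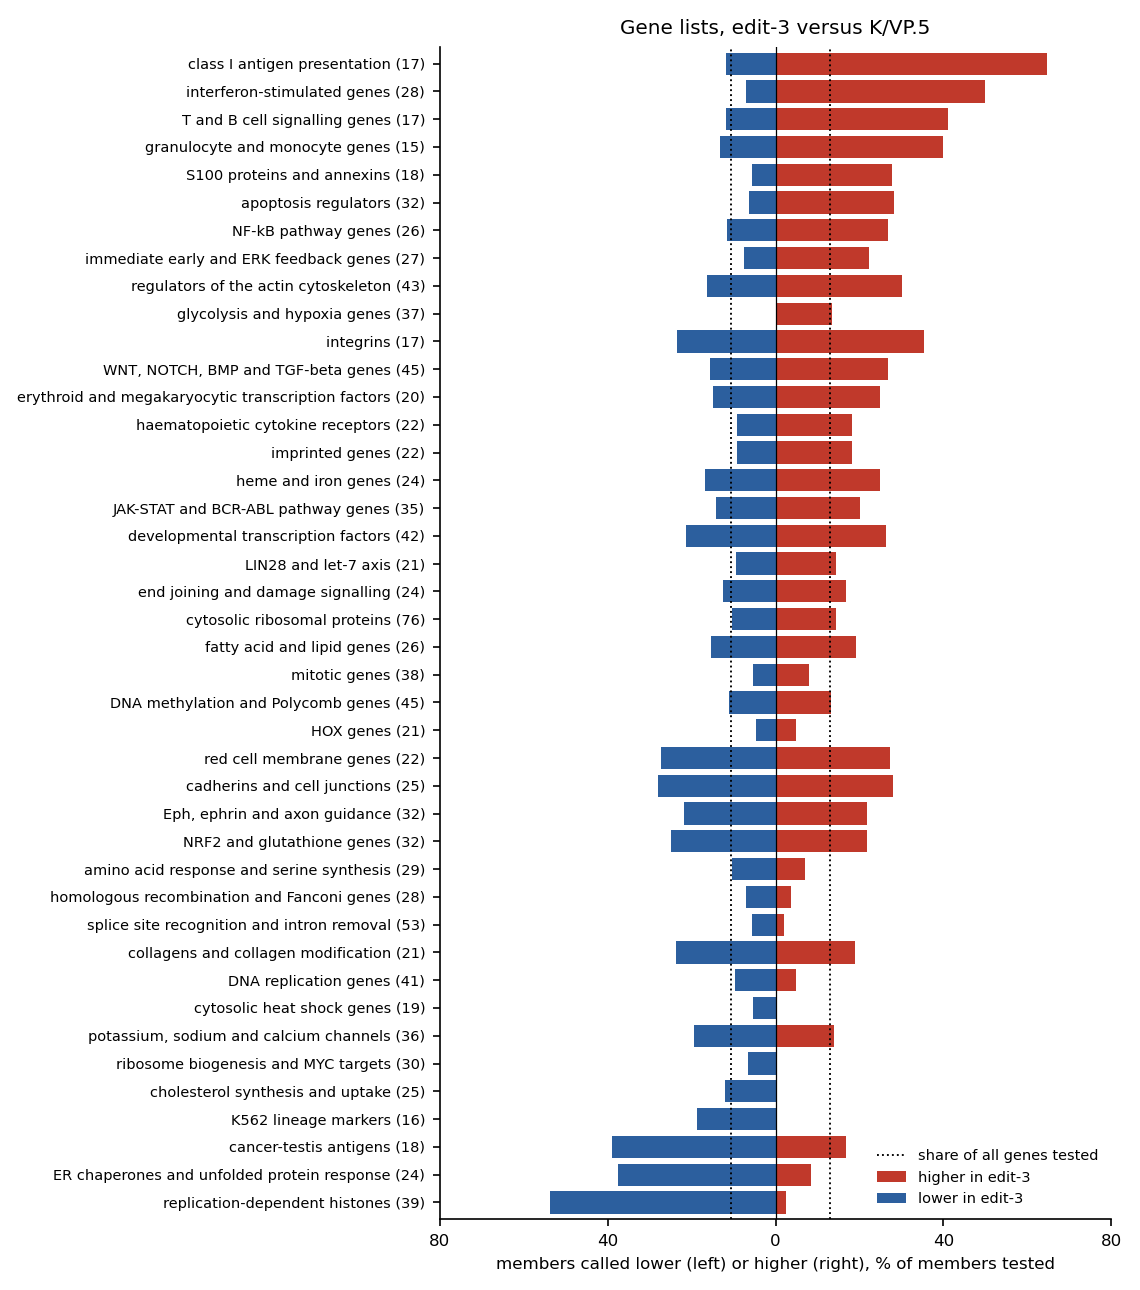
Share of each list's tested genes (number in parentheses) called higher in edit-3 (red, right) or lower (blue, left), for the lists with at least 15 genes tested. Dotted lines mark the shares of all genes, 12.9% higher and 10.6% lower, and class I presentation and interferon-stimulated genes reach furthest to the right while histones reach furthest to the left.

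Changes were not spread evenly along the chromosomes. Of genes tested on chromosome 14, 32.8% were higher and 4.34% lower, and on chromosome 4 24.4% were lower and 8.99% higher. Chromosome 12 had 18.9% lower and chromosome 3 20.7% higher. In windows of 10 Mb with at least 20 tested genes, 240 of 271 had a median log2 fold change within 0.2 of 0. In 4 windows at least 60% of genes were called in 1 direction. Other windows, some beside those, were shifted under that limit. On chromosome 14, 54.2% rose at 70 to 80 Mb and 50.8% at 90 to 100 Mb. On chromosome 3, 50% to 54.3% rose in each window from 160 to 190 Mb. On chromosome 12, 34.9% fell at 50 to 60 Mb and 55.6% at 70 to 80 Mb. Falls reached 48.4% and 48% over the first 20 Mb of chromosome 4, and 34.1% and 41.4% from 110 to 130 Mb of chromosome 11. RNA counts do not show DNA copy number, which was not measured here.

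Between 10 and 20 Mb of chromosome 16, 75 of 106 genes fell and 0 rose, with a median of -1.15, and at least 72 fell in each fit without 1 library. PDXDC1 fell from 260 ± 8.57 to 75.2 ± 2.05 CPM, GSPT1, a translation release factor, from 713 ± 39.7 to 343 ± 38.6 CPM and RSL1D1 from 889 ± 42.7 to 406 ± 41.4 CPM. NOMO1 and NOMO2, near-identical genes in this window, fell by 1.92 and 1.14. ABCC1, ABCC6, CIITA and SOCS1 lie here too, and the log2 fold change of ABCC1, -1.64, stands beside the window's median of -1.15. The adjoining first 10 Mb of chromosome 16 went the other way, with 124 of 253 genes higher (49%) and a median of 0.44, and RPS2 and the alpha-globin genes lie there.

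The 3 other windows changed less steeply. Between 60 and 70 Mb of chromosome 12, 28 of 46 genes fell (60.9%, median -0.56), among them CCT2, a chaperonin subunit, from 521 ± 47.4 to 342 ± 50.5 CPM and the nucleoporin gene NUP107 from 204 ± 2.24 to 132 ± 6.69 CPM. The fewest fallers there without 1 library were 23. Between 190 and 200 Mb of chromosome 3, 51 of 73 genes rose (69.9%, median 0.59, at least 42 without 1 library). They included RPL35A, RNF168, PAK2, a kinase below Rac, from 193 ± 7.19 to 273 ± 17.5 CPM, and OPA1, which fuses mitochondrial inner membranes, from 150 ± 8.35 to 219 ± 29.8 CPM. Between 80 and 90 Mb of chromosome 14, 13 of 20 genes rose (65%, median 0.63, at least 12 without 1 library). GALC, a lysosomal enzyme, rose there from 11 ± 1.51 to 29.6 ± 6.26 CPM, and TDP1 and SEL1L, with log2 fold changes of 0.40 and 0.65, lie in the same window. Just under the 60% limit, 55 of 93 genes (59.1%) rose between 100 and 110 Mb of chromosome 14.

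**Figure D5:**
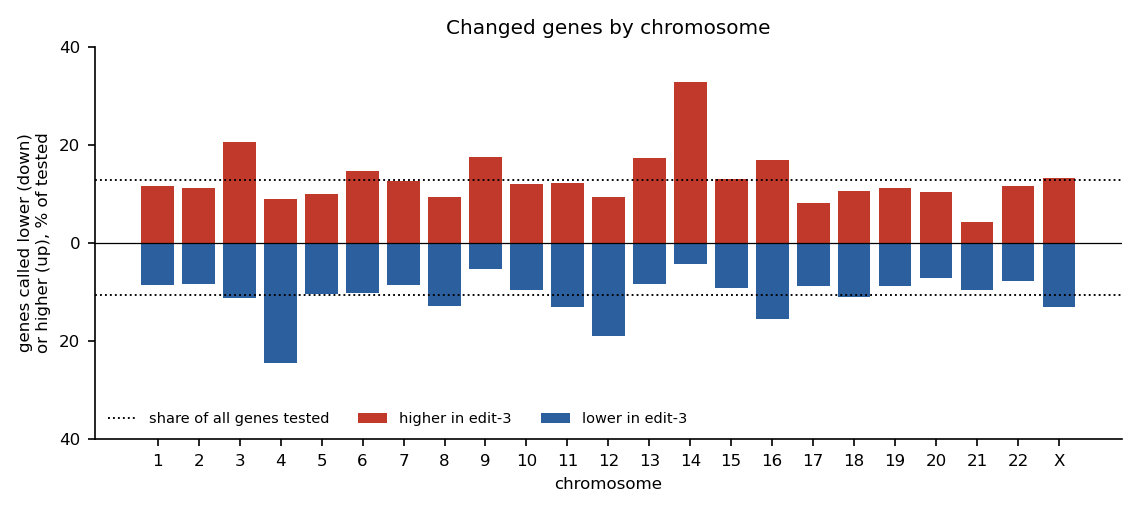
Share of genes tested on each chromosome that were called higher in edit-3 (red, up) or lower (blue, down), with dotted lines at the shares of all genes, 12.9% and 10.6%. Chromosome 14 stands out upward at 32.8% and chromosome 4 downward at 24.4%.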

How the data were processed

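The authors deposited raw read counts per gene for each library. Per the submitters' processing notes the tools were HISAT2 2.1.0 and featureCounts of Subread 1.5.1, with GRCh38. For annotation, strand setting and filters, the sources used here give nothing. Groups follow source names, because a free-text description calls edit-3 libraries parental K562.

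Counts of all 12 libraries were fitted in edgeR 4.0.16 (R 4.3.3, limma 3.58.1) with 1 coefficient per line, TMM scaling, filterByExpr (18286 of 58395 genes, 99.89% of reads) and robust quasi-likelihood tests, Benjamini-Hochberg adjusted at 0.05 over all genes tested. The script was tested on simulated data. Alternatives were DESeq2 1.42.0, other scaling and filters, the 8 libraries alone, replicate blocks and leaving out each library. The deviations of same-numbered libraries from their line means correlated at -0.073 to 0.36. Numbers were not taken as pairs in the main fit, and replicate blocks were kept as alternatives.

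Named were the 15 largest steady, non-overlapping rises and falls reaching 10 CPM, up to 3 such members per list from 1 CPM, and each list's most abundant member that did not pass; other genes were named after their values were seen. The comparison and the lists were chosen with earlier results of these data known. Positions are from GENCODE 29, and intervals cover counting error only. Some members that the naming rule selects are not reported here.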

Additional observations from a re-analysis of the deposited data

Results flagged for a closer look

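In 378 groups of 4 libraries, 30 held a library set apart from the other 3 by Dixon's criterion, which chance alone meets in about 1 in 20 groups. Edit-3 replicate 2 accounted for 10 of them. It was the highest edit-3 library for UTRN (55.2 CPM, the others 36 to 38.8), DNAJC12 (1.2 CPM), RUNX1 (178 CPM), FYN (37 CPM), TNFAIP3 (76.2 CPM) and HOXB9 (271 CPM). It was the lowest for FANCA (72.7 CPM, the others 93.5 to 94.5), SLC2A1 (275 CPM), ID1 (115 CPM) and CXCL1 (0.0667 CPM).

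K/VP.5 replicate 4 accounted for 7. It was the lowest K/VP.5 library for ABCG2 (2.69 CPM, the others 4.14 to 4.26) and CANX (1554 CPM). It was the highest for TFRC (2095 CPM, the others 1290 to 1398), SPATS2L (1.97 CPM), ITGA2B (2.53 CPM), ITGB5 (6.1 CPM) and ANXA4 (4.37 CPM). K/VP.5 replicate 3 was the highest for TNFAIP3 (21.4 CPM), HOXB9 (260 CPM), DDX53 (1.27 CPM) and RBFOX2 (69.4 CPM).

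The remaining 9 were spread over other libraries. Edit-3 replicate 1 was the highest for ADAMTS1 (0.129 CPM, the others 0) and the lowest for NECTIN2 (79 CPM) and KCNAB2 (3.33 CPM). Edit-3 replicate 3 was the lowest for CENPE (82.6 CPM) and KCNQ5 (0 CPM). Edit-3 replicate 4 was the highest for CIITA (2.65 CPM). K/VP.5 replicate 1 was the highest for CENPE (116 CPM) and MANF (34.8 CPM), and K/VP.5 replicate 2 for SOCS6 (17.7 CPM).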

How the results depend on the processing

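Over 16 alternatives the count of genes changed stayed within 1.5 times the 4309 reported, from 3388 without K/VP.5 replicate 1 to 5494 with the replicate block over 12 libraries. Leaving out each library gave 3388 to 4765 genes. DESeq2 gave 4671 genes. At least 2-fold changes numbered 1113 under the stricter filter and 1932 with no filter. With the replicate block the 5494 genes over 12 libraries were 2915 higher and 2579 lower, and the count was 4925 over the 8 libraries (2567 higher, 2358 lower). The deviations of same-numbered libraries from their line means correlated at 0.36, -0.073, -0.071 and 0.31. By this measure 2 of the 4 edit-3 libraries correlated best with their own number. Whether same-numbered libraries shared a batch was not tested. The TOP2A log2 fold change of 0.21 was 0.20 in the 8 libraries alone (adjusted p = 0.051), 0.20 with no filter (adjusted p = 0.14), 0.20 with the replicate block over 8 libraries (adjusted p = 0.076) and 0.21 with the block over 12 (adjusted p = 0.018). Leaving out each library gave 0.17 to 0.25, and the cause was not tested. Of 139 other named genes past the threshold, 137 kept direction and call in all 16 alternatives and 2 lost the call under the replicate block over 8 libraries. Of 49 named genes not past it, 12 passed in at least 1 alternative, and 0 reversed. Genes under 1 CPM rest on few reads, and 4 libraries of 1 clone limit what the spread can show.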
